A study of Mus musculus and Homo sapiens with 34 samples.

Results

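Aminoacyl-tRNA synthetases are the enzymes that join each amino acid to its transfer RNA. They were taken by symbol from the deposited count tables: the amino acid's letter followed by ARS, plus EPRS, FARSA, FARSB and FARS2. The rule found 37 of 55450 mouse genes and 37 of 58870 human genes, in each species 20 genes for cytosolic enzymes and 17 genes ending in 2 for mitochondrial enzymes. All 37 were abundant enough to be tested in each line.

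The libraries hold polyA RNA of spheroids made from the mouse colorectal carcinoma lines CT26 and MC38 and the human line HT29, 3 lines in all. Cells formed spheroids in ultra-low attachment U-bottom plates together with SIS ECM, a decellularised matrix, or as cells alone. Collection was at day 7, with 10 spheroids pooled per tube. There were 6 SIS ECM and 6 cells-alone libraries of CT26, 5 and 5 of MC38, and 6 and 6 of HT29. No group carried a genetic change or a drug according to the labels, the labels name no cell type besides the line, and nothing in the labels ties a library to a culture of its own. The p-values therefore rest on library-to-library spread, part or all of which could be technical.

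Cytosolic synthetases charge the transfer RNAs that ribosomes of the cytoplasm use, and several of them sit in the multisynthetase complex around the scaffold proteins AIMP1, AIMP2 and EEF1E1. The mitochondrial enzymes serve the ribosomes inside mitochondria and are encoded by separate nuclear genes, except that KARS and GARS are known to serve both places. When amino acids run short, uncharged transfer RNA activates the kinase GCN2 (EIF2AK4), which favours translation of the transcription factor ATF4, and ATF4 is known to raise genes of amino acid synthesis, amino acid uptake and many cytosolic synthetases. WARS, the tryptophan enzyme, is in addition known as an interferon-induced gene.

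The element through which ATF4 is known to act was looked for in the mouse promoters. Of the 37 mouse genes, 27 had a RefSeq promoter window (GRCm38.p6, 250 bases before to 50 after the start). The C/EBP-ATF response element, searched as TGATGNAA on both strands, was present in 5 of 27 genes (18.5%), against 3.97% of 32851 promoter windows of the same length. Synthetases were counted by gene, a match in any window of the gene sufficing, and all promoters by window. All 5 were genes of cytosolic enzymes, 5 of 13 (38.5%), and none of the 14 mitochondrial genes held it. The gamma-activated site TTCNNNGAA was found in 3 of 27 genes (11.1%, against 8.30% of all promoters), in Aars, Kars and Nars2. The interferon response element, GAAA repeated after a gap of 2 bases, was found in 1 of 27 (3.70%, against 3.44%), in Qars. These letter matches are descriptions and not binding sites. Stretches of 4 windows with the C/EBP-ATF element are shown 5′ to 3′ along the gene's own strand, with the match in capitals, so that the element can be read beside the values below. Human promoters were not searched, so whether the genes of HT29 hold the element is not known here. By the main test GARS and IARS were called in HT29, and none of the 4 in either mouse line. They are Gars at chr6:55037881-55038000 (plus strand), Tars at chr15:11399659-11399778 (minus), Iars at chr13:49682126-49682155 (plus) and Yars at chr4:129189895-129189924 (plus).
Gars: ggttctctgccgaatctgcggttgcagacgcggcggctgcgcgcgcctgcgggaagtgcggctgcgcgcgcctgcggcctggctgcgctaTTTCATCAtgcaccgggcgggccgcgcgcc
Tars: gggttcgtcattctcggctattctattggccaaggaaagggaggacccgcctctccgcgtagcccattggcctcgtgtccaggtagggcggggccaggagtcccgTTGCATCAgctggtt
Iars: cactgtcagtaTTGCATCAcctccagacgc
Yars: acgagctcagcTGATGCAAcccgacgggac
The matches begin at base -30 in Gars, -15 in Tars, 8 in Iars and 4 in Yars, counted from the annotated start of transcription. Aars holds the element too, at bases -112 and 10.

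Library totals were 15.8 to 24.2 (in 1e6 counts) in 22 mouse libraries and 25.5 to 37.0 in 12 human libraries, and the synthetase genes took 0.468 to 0.624% of mouse and 0.339 to 0.383% of human counts. Mouse libraries stood apart by their replicate number. Between libraries 4 to 6 and libraries 1 to 3 of the same line, 52.7% of all genes tested in CT26 and 40.8% in MC38 passed an adjusted p of 0.05, against 0% in HT29. The labels do not say what the numbers mark. In MC38 the ranges were not balanced: SIS ECM had libraries 1, 3, 4, 5 and 6 and cells alone had libraries 1 to 5. Counts of called synthetase genes in the mouse lines are therefore given with and without a term for the number range and within each range. Other mouse values are from the fit without the term unless stated. Of the lines' epithelial markers, Epcam and Cdh1 were at 0 in every CT26 library and Epcam and Krt19 in every MC38 library. Marker sums are in CPM, counts per 1e6 library counts, without the TMM scaling used for CPM of single genes. The sum of 6 epithelial markers was 9.95 to 23.4 CPM with SIS ECM and 5.13 to 9.51 CPM in cells alone in CT26, and 0.250 to 1.31 and 0.580 to 0.985 CPM in MC38. In HT29 it was 8386 to 9649 CPM with SIS ECM and 8869.6 to 9778 CPM in cells alone. The sum of 6 fibroblast markers was 389 to 699 CPM with SIS ECM and 467 to 776 CPM in cells alone in CT26, 2593 to 4038 and 3369.7 to 4554 CPM in MC38, and 0.654 to 1.27 and 0.570 to 1.52 CPM in HT29. Of the tested markers, Krt18 rose by 1.11 ± 0.20 and Dcn by 0.65 ± 0.16 on the log2 scale in CT26, Col1a1 fell by 3.23 ± 0.18 in MC38, and VIL1 fell by 0.23 ± 0.05 and CD68 by 0.18 ± 0.06 in HT29, the last a call lost when any HT29 library but SIS ECM library 1 and cells-alone libraries 5 and 6 was left out. The sum of 5 leukocyte markers was 1.44 to 10.8 CPM with SIS ECM and at most 2.90 CPM in cells alone in CT26, at most 1.63 CPM in MC38, and 18.7 to 21.8 CPM with SIS ECM and 20.3 to 24.3 CPM in cells alone in HT29. The sum of 4 endothelium markers was at most 5.42 CPM in any library. The Dcn call was lost within libraries 1 to 3 of CT26 alone (0.48, adjusted p = 0.188 by edgeR). The part of the marker genes in the synthetase values was not tested.

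In HT29, 6 of 20 cytosolic synthetases fell with SIS ECM and 1 rose. Of the 20 genes, 18 had a log2 fold change below 0 (SIS ECM over cells alone), and the median was -0.118, beside -0.005 over all 15207 genes tested, of which 51.5% were below 0. The calls are those of edgeR's quasi-likelihood test at an adjusted p under 0.05, by which 13.5% of all genes were called in this line, 5.79% fallen and 7.75% risen. Of the 17 mitochondrial genes, 12 were below 0, with a median of -0.031, and 1 fell. In bulk RNA, fewer cells of a type and less RNA per cell cannot be told apart.

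HARS, the histidine enzyme (ENSG00000170445.14), spanned 58.6 to 68.0 CPM with SIS ECM (median 60.0) and 69.6 to 72.2 CPM in cells alone (median 70.5). The groups did not overlap, and the log2 fold change was -0.19 ± 0.04 (SE, adjusted p = 0.00576 by edgeR). IARS, the isoleucine enzyme of the multisynthetase complex, spanned 275 to 327 CPM with SIS ECM (median 304) and 334 to 366 CPM in cells alone (median 347). Every SIS ECM library was below every cells-alone library, with a log2 fold change of -0.21 ± 0.05 (adjusted p = 0.00588 by edgeR). SARS, the serine enzyme, spanned 130.2 to 153 CPM with SIS ECM (median 136) and 152 to 177 CPM in cells alone (median 162). The groups met at their edges, and SARS fell by 0.22 ± 0.05 on the log2 scale (adjusted p = 0.00787 by edgeR). AARS, the alanine enzyme, spanned 134 to 148 CPM with SIS ECM (median 143) and 149 to 173 CPM in cells alone (median 166). Its groups did not overlap, and it fell by 0.20 ± 0.05 on the log2 scale (adjusted p = 0.00804 by edgeR).

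GARS, the glycine enzyme of both compartments, spanned 136 to 161 CPM with SIS ECM (median 144) and 156 to 182 CPM in cells alone (median 166). It fell by 0.21 ± 0.05 on the log2 scale (adjusted p = 0.0123 by edgeR), with overlapping groups. WARS spanned 90.6 to 102 CPM with SIS ECM (median 95.0) and 94.9 to 118 CPM in cells alone (median 114). It fell by 0.20 ± 0.05 on the log2 scale (adjusted p = 0.0161 by edgeR), and the lower cells-alone libraries reached into the SIS ECM range. DARS, the aspartate enzyme and a member of the multisynthetase complex, went the other way. It spanned 125 to 157 CPM with SIS ECM (median 137) and 112 to 133 CPM in cells alone (median 119), and rose by 0.20 ± 0.06 on the log2 scale (adjusted p = 0.027 by edgeR), with overlapping groups. Its call was lost without cells-alone library 1, 2 or 6 or SIS ECM library 6 (adjusted p up to 0.0621).

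Among the mitochondrial genes, HARS2, the mitochondrial histidine enzyme and the genomic neighbour of HARS, fell in HT29. It spanned 34.7 to 40.7 CPM with SIS ECM (median 39.1) and 41.3 to 44.4 CPM in cells alone (median 42.6), without overlap. The log2 fold change was -0.16 ± 0.05 (adjusted p = 0.0331 by edgeR), and the call was lost in 7 of 12 fits that left out a library (adjusted p up to 0.0849): without cells-alone library 1, 3, 4 or 5, or SIS ECM library 2, 3 or 5. CARS2, the cysteine enzyme, missed the threshold with a log2 fold change of -0.13 (adjusted p = 0.0507).

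**Figure D1:**
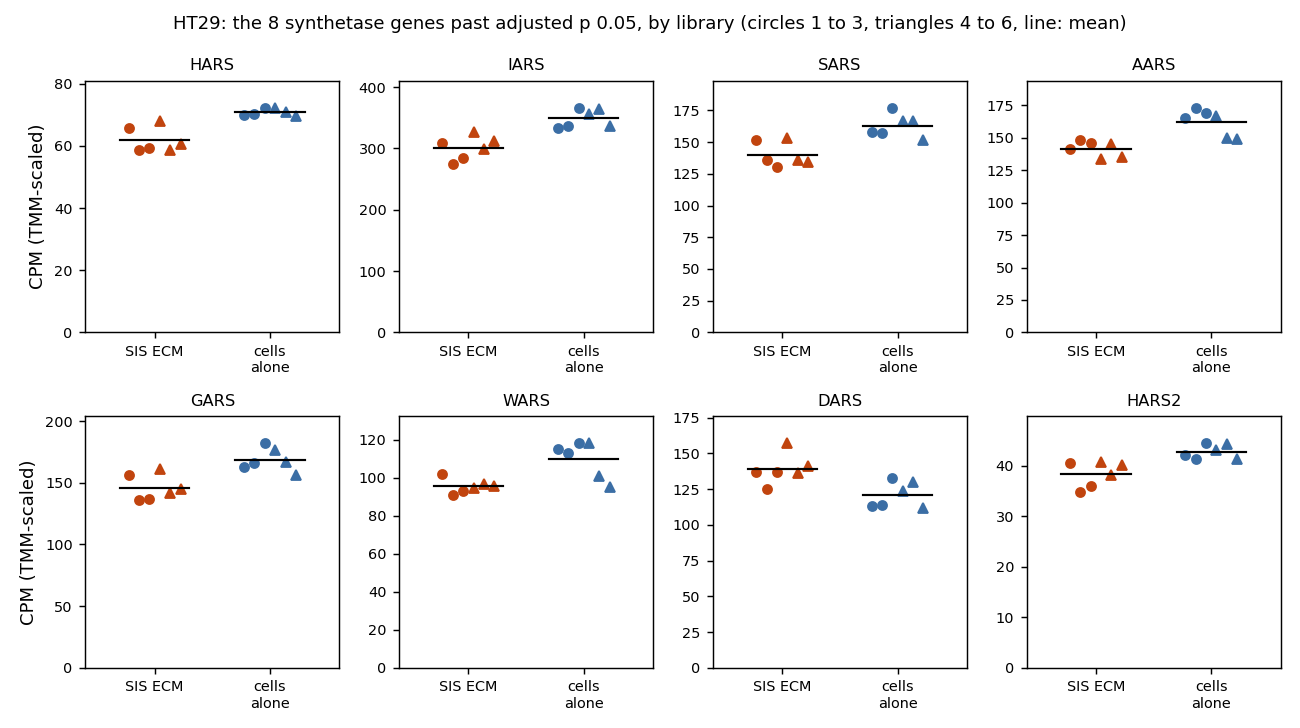
CPM of the 8 synthetase genes past an adjusted p of 0.05 in HT29, one point per library, SIS ECM left and cells alone right, with group means as lines and the axis starting at 0. HARS, IARS, AARS and HARS2 separate the groups fully, and DARS is the gene with the higher SIS ECM mean.

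The changes were small beside the levels, a fall of 12.6% for HARS and 14.1% for SARS. Counting all 20 cytosolic genes, 3 (HARS, IARS and AARS) had every SIS ECM library below every cells-alone library, where 2.74% of all genes did. The remaining cytosolic genes in HT29 ran from -0.15 for RARS, the arginine enzyme (adjusted p = 0.0627), to 0.10 for VARS, the valine enzyme (adjusted p = 0.137), and none of these 13 was called. The called genes were of both kinds. IARS is a complex member, and so is DARS, which rose, while HARS, SARS, AARS, GARS and WARS are known as free enzymes. Other complex members were RARS, given above, EPRS at -0.11 (adjusted p = 0.134), QARS at -0.13 (adjusted p = 0.112), MARS at -0.09 (adjusted p = 0.165), KARS at -0.10 (adjusted p = 0.238) and LARS at -0.01 (adjusted p = 0.957). Taken in 2 sets with no library in common, libraries 1 to 3 and libraries 4 to 6, 17 of 20 cytosolic genes (85.0%) were below 0 in both, where 39.5% of all genes were. Both sets are parts of the libraries that gave 18 of 20 below 0, so this count is not a separate result. Fewer genes passed the test in these smaller sets, 2 (AARS and WARS, beside 4.69% of all genes) in libraries 1 to 3 and 0 (beside 2.73%) in libraries 4 to 6.

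**Figure D2:**
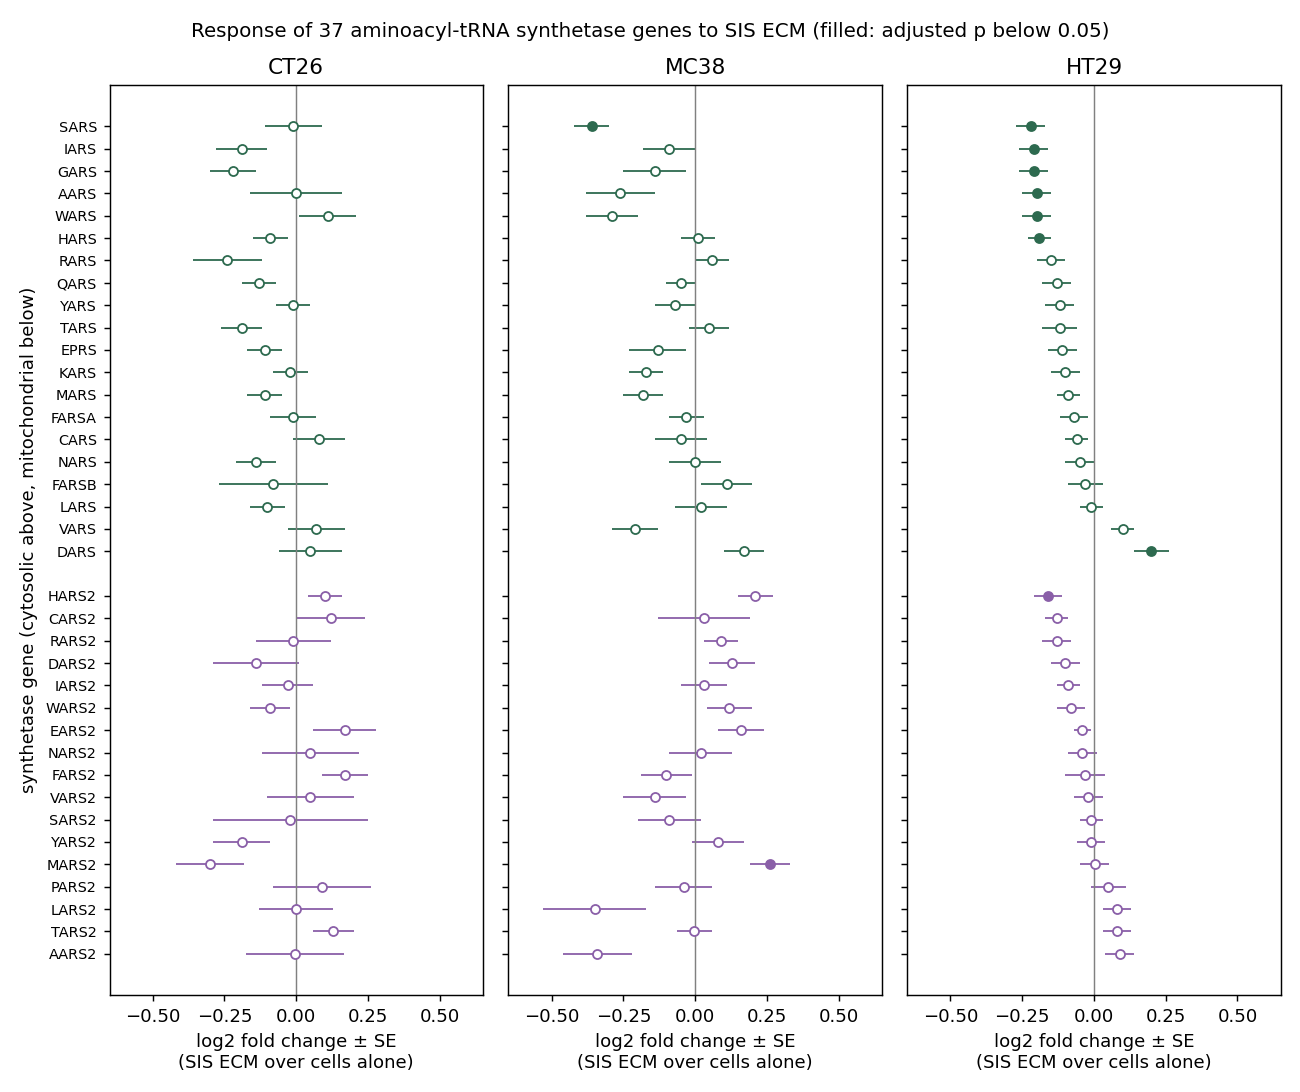
Log2 fold change with SE, SIS ECM over cells alone, for 20 cytosolic genes (upper block) and 17 mitochondrial genes (lower block) in each line, ordered by HT29 and filled where the adjusted p is under 0.05. In HT29, 18 of the 20 cytosolic genes lie left of 0; the mouse lines have 0 filled points in CT26 and 2 in MC38.

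In MC38, 2 of 37 synthetase genes were called, Sars and Mars2, where 9.17% of all genes were (5.36% fallen, 3.82% risen). The cytosolic median was -0.057, with 14 of 20 genes below 0, and the mitochondrial median was 0.029, with 7 of 17 below 0, beside 0.006 and 48.6% over all 13146 genes. Sars (ENSMUSG00000068739.13, 12 exon blocks at chr3:108424865-108445209, minus strand, GRCm38) measured 164, 167, 153, 152 and 151 CPM with SIS ECM, against 204, 201, 209, 183 and 211 CPM in cells alone. All SIS ECM libraries were lower, as for 2 of 37 synthetase genes and 691 of all 13146 genes. Sars fell by 0.36 ± 0.06 on the log2 scale (adjusted p = 0.00343 by edgeR), a fall of 21.9%. The fall was of like size within libraries 1 to 3 (-0.31, adjusted p = 1.57e-05) and within libraries 4 to 6 (-0.38, adjusted p = 0.000444). SARS is the synthetase called in both MC38 and HT29.

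Mars2, the mitochondrial methionine enzyme (a single exon at chr1:55237177-55248470, plus strand), measured 37.1, 31.0, 36.9, 39.7 and 36.8 CPM with SIS ECM, against 31.4, 31.4, 28.8, 32.2 and 27.8 CPM in cells alone. One SIS ECM library, number 3, lay inside the cells-alone range. Mars2 rose by 0.26 ± 0.07 on the log2 scale (adjusted p = 0.045 by edgeR). It was at 0.15 in libraries 1 to 3 (adjusted p = 0.115) and 0.33 in libraries 4 to 6 (adjusted p = 0.00925). The call was lost without a filter on low counts (adjusted p = 0.0668) and with all mouse libraries in 1 fit (adjusted p = 0.22). It was lost too with the replicate number as a block (adjusted p = 0.0657; 9.01% of all genes called), a fit without SIS ECM library 6 and cells-alone library 2, which lack a partner. It was also lost when any of 8 of the 10 libraries was left out (adjusted p up to 0.113), the exceptions being SIS ECM library 3 and cells-alone library 4. Without cells-alone library 4, 6 genes were called, Sars, Vars, Wars and Mars as fallen and Dars and Mars2 as risen, where 14.7% of all genes were called. Hars2 (chr18:36783008-36792562, plus strand) measured 39.8, 38.8, 38.6, 40.9 and 40.6 CPM with SIS ECM, against 37.1, 35.6, 36.1, 30.8 and 32.1 CPM in cells alone. The groups did not overlap, with SIS ECM higher, as for 1 of 37 synthetase genes and 577 of all 13146 genes. The log2 fold change was 0.21 ± 0.06 (adjusted p = 0.0588 by edgeR). With a term for the number range it was 0.23 ± 0.06 (adjusted p = 0.00782), and 0.22 with the replicate block (adjusted p = 0.0975). It was 0.11 in libraries 1 to 3 (adjusted p = 0.169) and 0.34 in libraries 4 to 6 (adjusted p = 0.0037).

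With the number range as a term, 10 of 37 genes were called in MC38, where 24.7% of all genes were (12.5% fallen, 12.2% risen). In that fit Sars, Wars, Vars, Aars, Kars and Mars and the mitochondrial Aars2 fell, and Dars, Hars2 and Mars2 rose. With the replicate block Sars alone was called (adjusted p = 0.00744), and the other 9 were not, at adjusted p = 0.0657 for Mars2, 0.0775 for Aars2, 0.095 for Aars, 0.0975 for Hars2, 0.104 for Wars, 0.132 for Vars, 0.165 for Kars, 0.186 for Mars and 0.206 for Dars. Aars fell by 0.18 ± 0.04 on the log2 scale with the term (adjusted p = 0.00679) and was below 0 within both ranges, -0.15 in libraries 1 to 3 and -0.23 in libraries 4 to 6. Vars, by contrast, was at -0.43 in libraries 1 to 3 (adjusted p = 1.8e-06) and -0.03 in libraries 4 to 6 (adjusted p = 0.759). Kars, the lysine enzyme of both compartments, was at -0.06 in libraries 1 to 3 and -0.29 in libraries 4 to 6 (adjusted p = 0.00405). Dars rose by 0.15 ± 0.05 on the log2 scale with the term (adjusted p = 0.0486), and missed the threshold without it (0.17, adjusted p = 0.149). Within libraries 1 to 3 alone 16 genes were called (39.7% of all genes), and within libraries 4 to 6 alone 5 were (17.1%).

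In CT26, none of the 37 synthetase genes was called by edgeR, where 9.25% of all genes were. At an unadjusted p under 0.05 there were 5 (24.3% of all genes), limma voom called 0, and DESeq2 called 2 (13.4% of all genes), Gars and Tars, both lower with SIS ECM. The cytosolic median was -0.081, with 15 of 20 genes below 0, and the mitochondrial median was 0.000, with 8 of 17 below 0, beside 0.008 and 48.5% over all 12269 genes. The lowest adjusted p was that of Tars, the threonine enzyme, which spanned 205 to 251 CPM with SIS ECM (median 225) and 254 to 269.6 CPM in cells alone (median 257). All SIS ECM libraries were lower, as for 1 of 37 synthetase genes and 347 of all 12269 genes. The log2 fold change was -0.19 ± 0.07 (adjusted p = 0.089 by edgeR). Within libraries 1 to 3 it was -0.34 and within libraries 4 to 6 it was -0.06. Gars spanned 415 to 455 CPM with SIS ECM (median 425) and 441 to 587 CPM in cells alone (median 493), with a log2 fold change of -0.22 ± 0.08 (adjusted p = 0.0897 by edgeR).

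With the number range as a term, 6 of 37 genes were called in CT26, where 28.9% of all genes were called and 13.7% had fallen. Rars, Gars, Tars, Iars and Qars, all cytosolic, and the mitochondrial Mars2 fell. Iars was called within both ranges, at -0.19 ± 0.04 with the term (adjusted p = 0.00285), -0.25 in libraries 1 to 3 (adjusted p = 0.0227) and -0.13 in libraries 4 to 6 (adjusted p = 0.0361). Rars was at -0.42 in libraries 1 to 3 and -0.09 in libraries 4 to 6. Within libraries 1 to 3 alone 7 genes were called (2484 of all 12405 genes tested there), and within libraries 4 to 6 alone 4 were (19.0%). With the replicate block 3 genes fell, Rars (adjusted p = 0.0348), Gars (0.0393) and Iars (0.0313), where 18.6% of all genes were called. Same-numbered CT26 libraries deviated together (correlation 0.22 to 0.48), but 1 of 6 correlated best with its own number. Every best partner lay in the same number range. Of the 5 genes with the C/EBP-ATF element in their windows, Gars, Tars and Iars were among the 6 called with the term. Aars and Yars were not called in CT26, at 0.00062 ± 0.16 (adjusted p = 0.999) and -0.01 ± 0.06 (adjusted p = 0.953) without the term. In MC38 with the term, Aars alone of the same 5 genes was called, as given above. There Gars was at -0.07 (adjusted p = 0.23 by edgeR), Tars at 0.08 (0.309), Iars at -0.03 (0.608) and Yars at -0.03 (0.677).

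**Figure D3:**
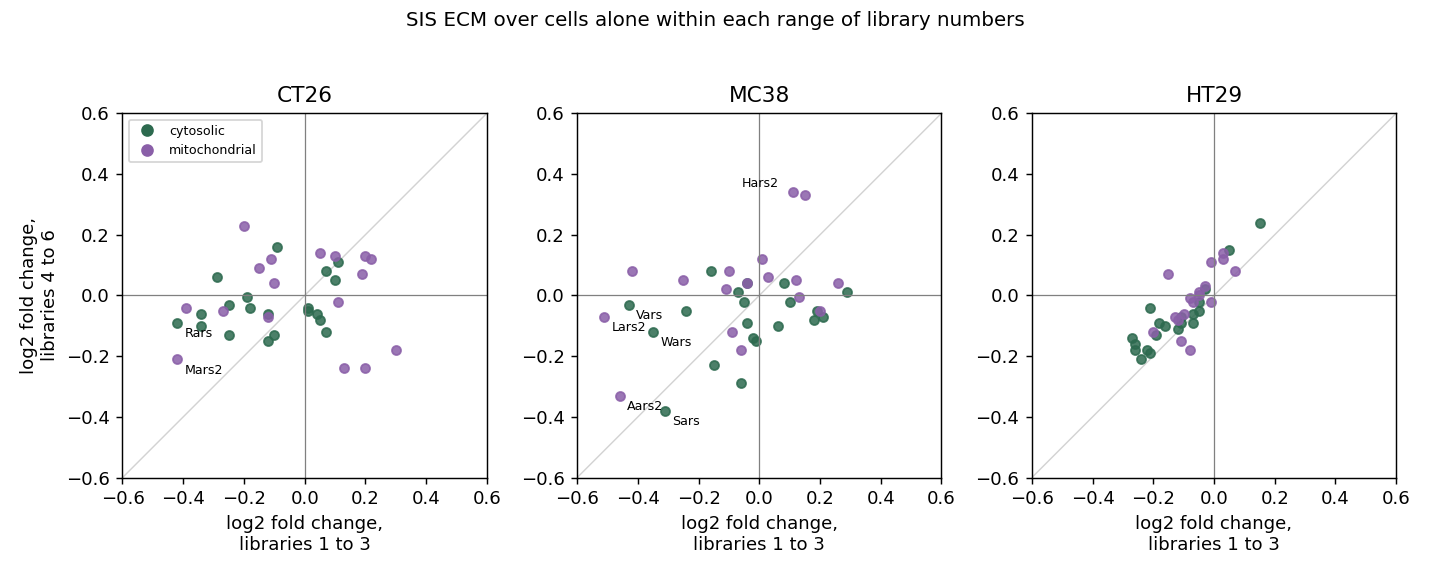
Log2 fold change of SIS ECM over cells alone within libraries 1 to 3 (x axis) and within libraries 4 to 6 (y axis) for each synthetase gene, cytosolic green and mitochondrial purple, with the line of equality in grey. In HT29, 17 of 20 cytosolic genes lie below 0 on both axes; in CT26 and MC38, 10 of 20 do.

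Between the number ranges themselves, the contrast of libraries 4 to 6 with libraries 1 to 3 was added after the data were seen. In MC38, 11 of 20 cytosolic genes were lower and 1 was higher in libraries 4 to 6, while of 17 mitochondrial genes 1 was lower and 3 were higher (20.9% of all genes lower, 19.9% higher). Gars averaged 239 ± 13.5 CPM in libraries 4 to 6 and 311 ± 7.73 CPM in libraries 1 to 3 of MC38 (SD, n = 5 each), a log2 difference of -0.37 ± 0.04 (adjusted p = 1.15e-05 by edgeR). Sars, called in MC38 in every fit described above, had a SIS ECM response of -0.36 without the range term and -0.34 with it. In CT26, 6 cytosolic genes were lower and 4 higher, and 2 mitochondrial genes were lower and 6 higher (26.3% of all genes lower, 26.5% higher). Farsb, a phenylalanine enzyme subunit, averaged 175 ± 6.40 CPM in libraries 4 to 6 and 109.7 ± 12.4 CPM in libraries 1 to 3 of CT26 (SD, n = 6 each). The log2 difference was 0.68 ± 0.06 (adjusted p = 2.77e-07 by edgeR).

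The response itself differed between lines for 2 mitochondrial genes. MARS2 moved by 0.26 in MC38, against -0.30 in CT26, a difference of 0.55 ± 0.14 (adjusted p = 0.0203 by edgeR's interaction test), where 8.27% of all genes were called. In CT26, Mars2 spanned 22.9 to 35.1 CPM with SIS ECM (median 32.4) and 29.2 to 41.7 CPM in cells alone (median 38.0). The difference stayed past the threshold in each of the 22 fits without 1 library (adjusted p up to 0.0401). HARS2 moved by -0.16 in HT29, against 0.21 in MC38, a difference of -0.38 ± 0.08 (adjusted p = 0.00249 by edgeR's interaction test, 5.92% of all genes called). Against 0.10 in CT26, the HT29 difference was -0.27 ± 0.07 (adjusted p = 0.0153, 10.8% of all genes called). The second of these lost its call without any of 6 libraries (adjusted p up to 0.0943), SIS ECM library 5 or 6 or cells-alone library 5 of CT26 and SIS ECM library 2 or 3 or cells-alone library 5 of HT29. HT29 libraries took part in both HARS2 tests, which are not independent. At an unadjusted p under 0.05 there were 6 genes for MC38 minus CT26, 5 for HT29 minus CT26 and 8 for HT29 minus MC38, where 23.5%, 23.8% and 18.6% of all genes passed. With the number range as a term, 6, 5 and 6 genes were called (26.6%, 23.1% and 15.3% of all genes). For MC38 minus CT26 these were Mars2, Rars, Tars and Iars, higher in the MC38 response, and Wars and Sars, lower.

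**Figure D4:**
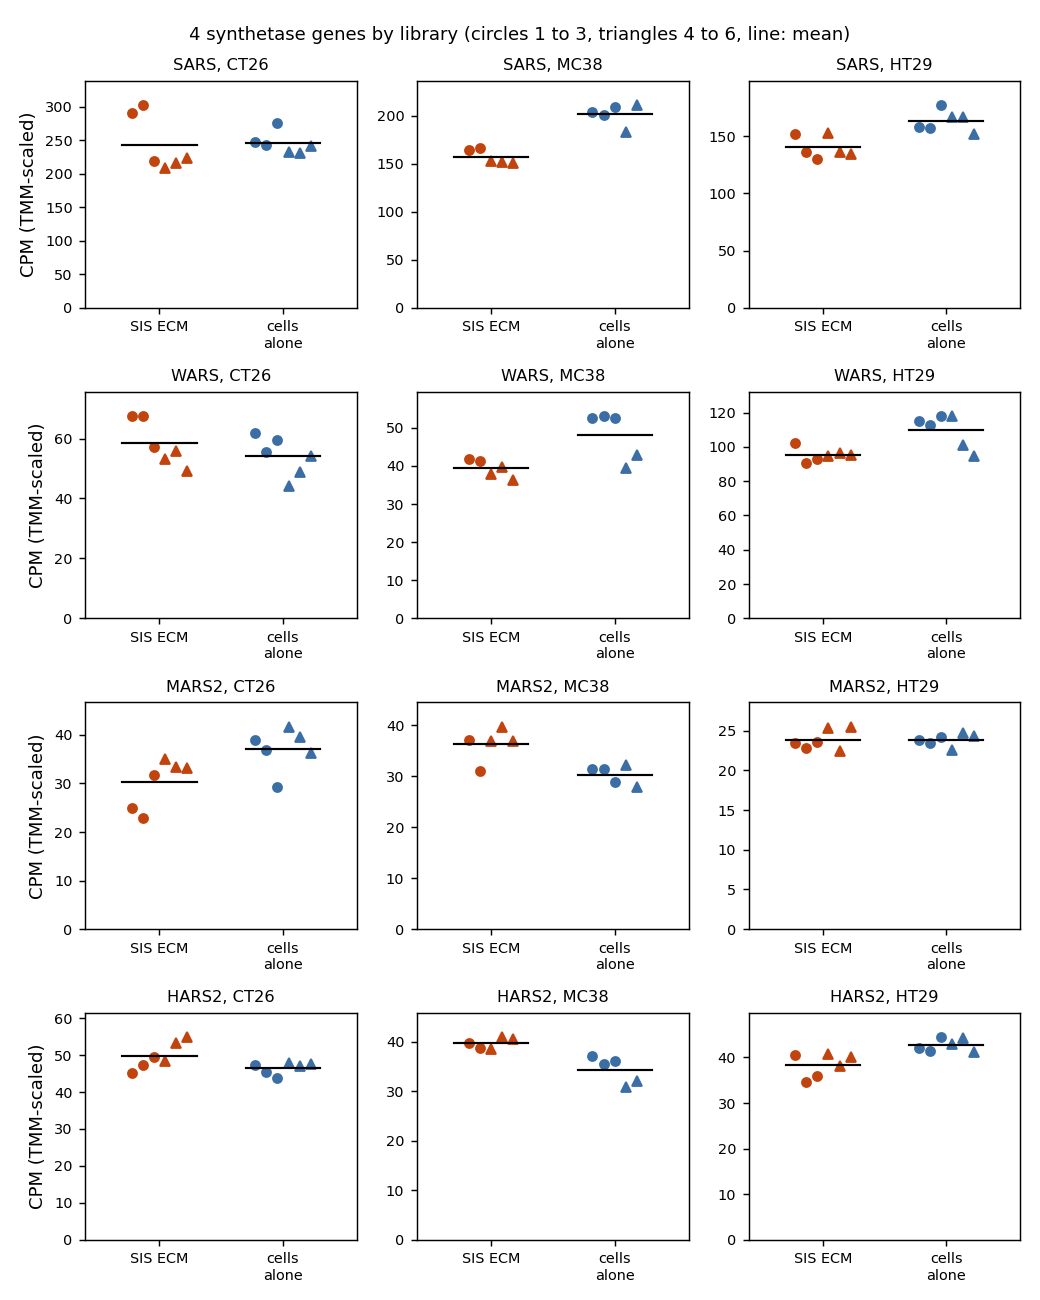
CPM of SARS, WARS, MARS2 and HARS2 in each library of the 3 lines, SIS ECM left and cells alone right, circles for libraries 1 to 3 and triangles for libraries 4 to 6, with means as lines. SIS ECM libraries of MC38 are all lower for SARS and all higher for HARS2, and the SIS ECM mean of MARS2 is lower in CT26 and higher in MC38.

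WARS was not called as risen in any line, whereas interferon genes measured beside it rose in CT26 and HT29. In CT26, Wars (chr12:108860030-108894174, minus strand) spanned 49.3 to 67.5 CPM with SIS ECM (median 56.6) and 44.3 to 61.9 CPM in cells alone (median 54.8). The groups overlapped, with a log2 fold change of 0.11 ± 0.10 (adjusted p = 0.54 by edgeR, 95% interval -0.10 to 0.32). In the same libraries 6 of 6 tested interferon genes rose, with a median of 0.91 (9.25% of all genes called). Psmb8, an immunoproteasome subunit, was at 1.85 ± 0.26 (adjusted p = 0.000378) and Irf7, an interferon regulatory factor, at 2.09 ± 0.37 (adjusted p = 0.00264). In HT29, WARS fell as given above while 4 of 6 interferon genes rose, with a median of 0.27 (7.75% of all genes risen). TAP1, the peptide transporter, was at 0.53 ± 0.07 (adjusted p = 3.72e-05). In MC38, Wars measured 41.8, 41.4, 37.8, 39.7 and 36.3 CPM with SIS ECM, against 52.5, 53.1, 52.5, 39.5 and 42.9 CPM in cells alone. Its cells-alone libraries 4 and 5 were near the SIS ECM values, and the log2 fold change was -0.29 ± 0.09 (adjusted p = 0.0611 by edgeR). With the number range as a term it was -0.23 ± 0.06 (adjusted p = 0.00754), -0.21 with the replicate block (adjusted p = 0.104), -0.35 within libraries 1 to 3 (adjusted p = 4.93e-05) and -0.12 within libraries 4 to 6 (adjusted p = 0.259). Of the interferon genes in MC38, 3 of 6 fell, with a median of -0.13 (5.36% of all genes fallen). They were Psmb8 at -0.26 ± 0.06 (adjusted p = 0.0156), Irf1 at -0.30 ± 0.07 (adjusted p = 0.0161) and Tap1 at -0.27 (adjusted p = 0.0222). All 3 calls were lost with all mouse libraries in 1 fit (edgeR adjusted p = 0.317, 0.085 and 0.375). Within libraries 4 to 6 alone the calls of Irf1 (-0.16, adjusted p = 0.0568 by edgeR) and Tap1 (-0.17, adjusted p = 0.075) were lost too. The Tap1 call was lost with the replicate block (adjusted p = 0.0657) and without SIS ECM library 5 or 6 or cells-alone library 1, 2 or 3 (adjusted p up to 0.0671), and that of Irf1 without cells-alone library 3 (adjusted p = 0.0505). The WARS response in HT29 against that in CT26 differed by -0.33 ± 0.12 (adjusted p = 0.0593), and MC38 against CT26 by -0.41 ± 0.14 (adjusted p = 0.0806). Both passed with the replicate block (adjusted p = 0.00987 and 0.0429).

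Of 20 genes for sensing of uncharged transfer RNA and ATF4 targets, 7 fell and 2 rose in HT29, with a median of -0.13 (5.79% of all genes fallen, 7.75% risen). NUPR1, a stress-induced nuclear protein, spanned 6.10 to 7.41 CPM with SIS ECM (median 7.21) and 6.10 to 14.9 CPM in cells alone (median 11.1), a log2 fold change of -0.69 ± 0.15 (adjusted p = 0.00404). SLC3A2, the heavy chain of amino acid exchangers, fell by 0.20 ± 0.04 on the log2 scale (adjusted p = 0.00575). ATF4 itself spanned 250.2 to 282 CPM with SIS ECM (median 266) and 276 to 313 CPM in cells alone (median 299), and fell by 0.16 ± 0.04 on the log2 scale (adjusted p = 0.0178), a call lost without cells-alone library 4 (adjusted p = 0.051). Not all targets moved this way: SLC7A5, an amino acid exchanger subunit, rose by 0.18 ± 0.05 on the log2 scale (adjusted p = 0.0203), a call lost without SIS ECM library 3 (adjusted p = 0.0515). Of the other falls, NUPR1, SLC3A2 and DDIT3 kept their calls in every fit without 1 library. CHAC1, ASNS and TRIB3 lost theirs in 8, 6 and 3 of 12 such fits (edgeR adjusted p up to 0.0933). The CHAC1 call was also lost with limma voom (adjusted p = 0.0526). ATF4 protein was not measured.

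In MC38, 3 of 20 of these genes fell and 1 rose, with a median of -0.20 (5.36% of all genes fallen, 3.82% risen). With the number range as a term 10 fell and 2 rose (12.5% of all genes fallen, 12.2% risen), and with the replicate block 4 fell and 0 rose (9.01% of all genes called). Trib3, a pseudokinase and ATF4 target, spanned 20.8 to 25.8 CPM with SIS ECM (median 23.6) and 35.9 to 50.7 CPM in cells alone (median 42.7). It fell by 0.89 ± 0.09 on the log2 scale (adjusted p = 0.000137), without overlap, as for 691 of all 13146 genes in that direction. Vldlr, a lipoprotein receptor, fell by 0.35 ± 0.07 on the log2 scale (adjusted p = 0.00899), and Atf4 was at -0.19 ± 0.05 (adjusted p = 0.0405). The Atf4 call was lost with the replicate block (adjusted p = 0.0937), without a filter on low counts (adjusted p = 0.144) and in 9 of 10 fits that left out a library (adjusted p up to 0.0918), the exception being cells-alone library 4. In CT26, of 19 genes tested, 3 rose and 2 fell, with a median of -0.10 (9.25% of all genes called). Nupr1 rose by 0.51 ± 0.07 on the log2 scale (adjusted p = 0.000216) and Ddit3, the stress factor CHOP, by 0.71 ± 0.14 (adjusted p = 0.00455), while Psat1 of serine synthesis fell by 0.45 ± 0.12 on the log2 scale (adjusted p = 0.0334). The Psat1 call was lost in 8 of 12 fits that left out a library (adjusted p up to 0.0746), all but SIS ECM libraries 4 to 6 and cells-alone library 3, and that of Ddit3 without a filter on low counts (adjusted p = 0.678). With the number range as a term 5 rose and 7 fell (28.9% of all genes called), and with the replicate block 3 rose and 6 fell (18.6%). Ddit3 shares 68 exon bases with Mars on the opposite strand, and whether counting used the strand is not stated in the sources used here.

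Partners of the synthetases are given beside the share of all genes called, 9.25% in CT26, 9.17% in MC38 and 13.5% in HT29. Of the scaffold genes of the multisynthetase complex, 0 of 3 were called in CT26 and in MC38, and in HT29 AIMP2 was at -0.18 ± 0.06 (adjusted p = 0.0428), a call lost in 9 of 12 fits that left out a library (adjusted p up to 0.104), all but SIS ECM libraries 1 and 4 and cells-alone library 2. Of 12 other genes for charging, editing and export of transfer RNA, Aarsd1, an editing protein related to the alanine enzyme, rose in CT26 by 0.69 ± 0.11 on the log2 scale (adjusted p = 0.00111). It spanned 15.6 to 23.8 CPM with SIS ECM and 10.2 to 13.5 CPM in cells alone, without overlap, as for 506 of all 12269 genes in that direction. None of the 12 was called in MC38, and in HT29 TARSL2, a threonine enzyme homologue, fell by 0.32 ± 0.09 on the log2 scale (adjusted p = 0.0226) and DTD1, a deacylase of mischarged transfer RNA, was at -0.19 ± 0.06 (adjusted p = 0.0356). The DTD1 call was lost in 9 of 12 fits that left out a library (adjusted p up to 0.0912), all but SIS ECM libraries 1 and 4 and cells-alone library 6, and with the replicate block (adjusted p = 0.0539), and that of TARSL2 without SIS ECM library 2 or cells-alone library 1 (adjusted p up to 0.0539). Of 9 elongation factors, Eef2, the translocase of the cytosolic ribosome, fell in MC38 by 0.44 ± 0.08 on the log2 scale (adjusted p = 0.00608). The Eef2 call was lost with all mouse libraries in 1 fit (edgeR adjusted p = 0.172). EEF1G was at -0.22 ± 0.07 in HT29 (adjusted p = 0.0385), a call lost in the same 9 of 12 fits as that of DTD1 (adjusted p up to 0.0964), and 0 of 9 were called in CT26.

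Per length of exon, cytosolic enzymes stood above mitochondrial enzymes in both mouse lines. Length is the union of all annotated exons of a gene, not that of the transcripts present, and the order of genes depends on it. Eprs, for example, averaged 625 CPM with SIS ECM in CT26, which is 34.5 CPM per kb over its 18.1 kb. The median over 20 cytosolic genes was 37.3 CPM per kb with SIS ECM and 40.4 CPM per kb in cells alone in CT26, and 33.0 and 34.8 CPM per kb in MC38. Over 17 mitochondrial genes it was 2.67 and 3.28 CPM per kb in CT26 and 2.77 and 2.68 CPM per kb in MC38. Gars led in CT26, at 138 ± 4.94 CPM per kb with SIS ECM and 161 ± 17.8 CPM per kb in cells alone (SD, n = 6 each). Nars, the asparagine enzyme, led in MC38, at 99.9 ± 12.6 CPM per kb with SIS ECM and 100.1 ± 7.74 CPM per kb in cells alone (SD, n = 5 each). Rars was next with SIS ECM, at 88.9 ± 4.09 CPM per kb, and Gars next in cells alone, at 92.3 ± 10.8 CPM per kb. The ranges of mean ± SD of Nars and of these neighbours overlapped.

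Lars2, the mitochondrial leucine enzyme (chr9:123366927-123462666, plus strand), stood far above the other mitochondrial genes, at 63.8 ± 10.0 CPM per kb with SIS ECM and 63.7 ± 12.2 CPM per kb in cells alone in CT26. In MC38 it was at 66.6 ± 17.7 and 84.6 ± 16.6 CPM per kb. Gm42418, a transcript known for overlap with ribosomal RNA sequence and looked up outside the naming rule, was set beside it. In CT26 libraries Lars2 ran from 566 to 919.6 CPM and Gm42418 from 3007 to 4647 CPM, and the correlation of their log2 values was 0.17 over 12 libraries (-0.07 in libraries 1 to 3 and 0.88 in libraries 4 to 6). In MC38 it was 0.86 over 10 libraries. These values share library depth and scaling, and they are a description. In MC38 libraries Lars2 ran from 544 to 1187 CPM and Gm42418 from 2005 to 5054 CPM, and Gm42418 had a log2 fold change of -0.63 ± 0.19 with SIS ECM in MC38 (adjusted p = 0.0543) and 0.05 ± 0.12 in CT26 (adjusted p = 0.837). The part of Gm42418 in the Lars2 level was not tested.

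**Figure D5:**
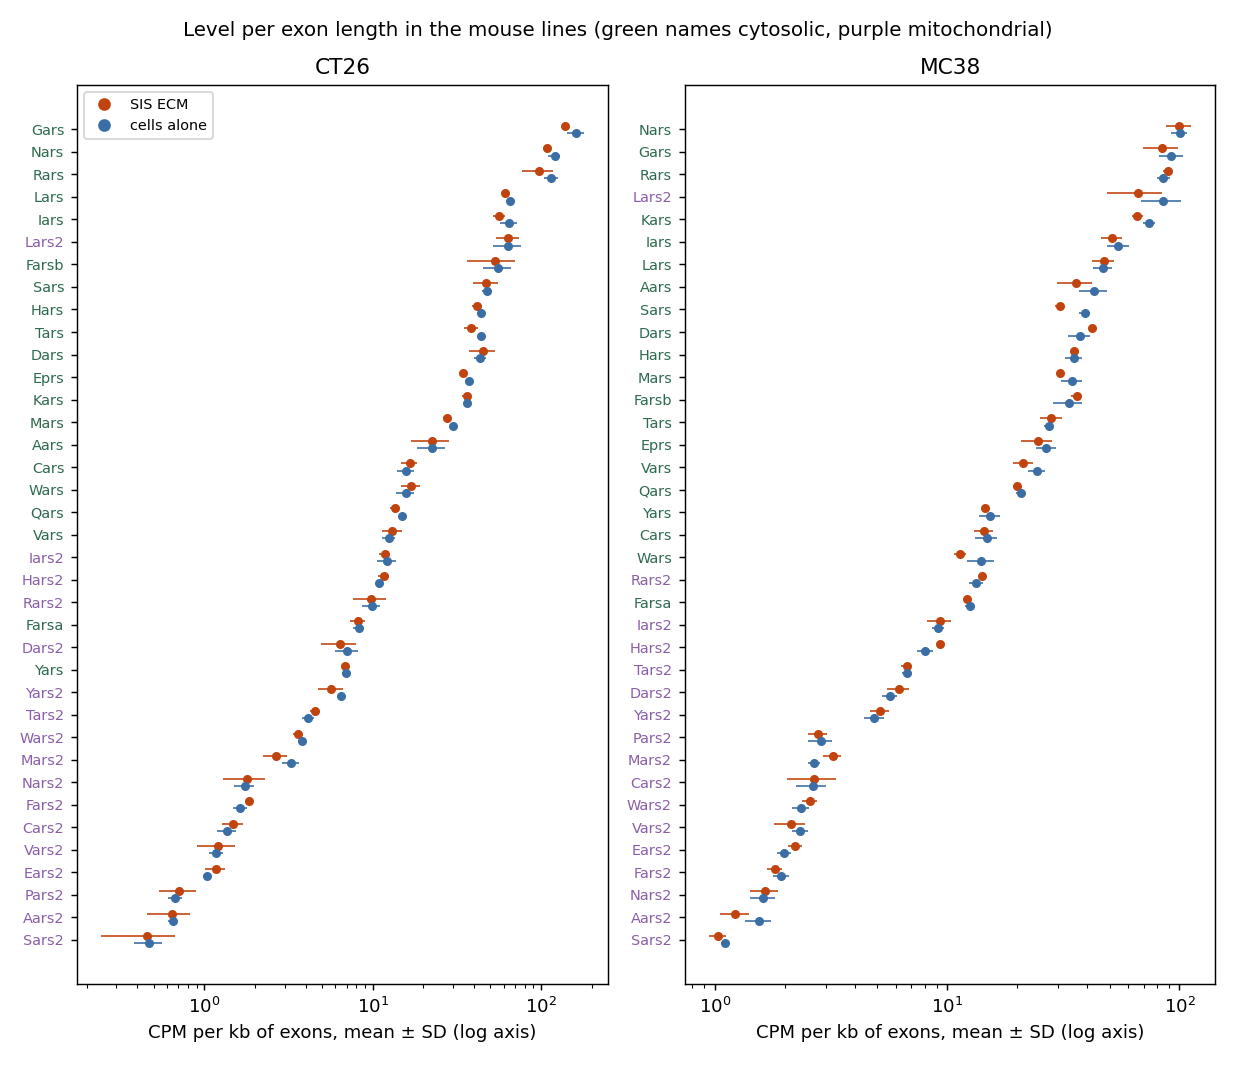
Mean CPM per kb of exons with SD in CT26 and MC38, on a log axis, SIS ECM drawn above cells alone for each gene and genes ordered by the cells-alone mean. Cytosolic genes (green names) fill the upper part, and Lars2 is the mitochondrial gene among them.

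Some counts share sequence with a neighbour. In the mouse annotation 14 of 37 synthetase genes overlap exons of another gene, and 1 does so on the same strand, Aars with Exosc6 over 14.29% of its exon bases. Hars and Hars2 share 195 bases on opposite strands, and Iars2 shares 22.89% of its exon bases with Rab3gap2 on the opposite strand. Values of these genes are uncertain to that extent.

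The authors' deposited table of limma results was read at an adjusted p of 0.05. The authors' deposited table held 10 fallen and 1 risen synthetase gene in HT29 (16.0% of all genes called), which are the 8 described above plus CARS2, IARS2 and RARS, all lower. For MC38 the authors' deposited table held Kars and Sars as fallen and Hars2 as risen (8.32% of all genes called), and for CT26 it held 0 of 37 (11.8%).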

How the data were processed

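Per the labels' protocols, polyA RNA was extracted (TRIzol, then RNeasy Micro columns), and stranded mRNA libraries, pooled within species, were sequenced as read pairs. Builds mm10 and hg38 and the tools limma, RSEM 1.3.1, STAR 2.7.0f and cutadapt 1.18 are named in the submitters' processing notes, without their roles. Whether counting used the strand is not stated in the sources used here. As deposited by the authors, the tables hold expected counts per gene, not normalised, and, per the file headers, log2 fold changes and adjusted p-values for each line. They also hold per-sample columns, of which 34 were not used.

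Expected counts were rounded and tested per line with edgeR 4.0.16 (R 4.3.3), two-sided quasi-likelihood test, TMM factors, filterByExpr with a minimum count of 10 and Benjamini-Hochberg adjustment over all genes tested. All adjusted p-values are from it unless another source is named. "Rose" and "fell" mean an adjusted p under 0.05. Differences between lines are interactions, over all mouse libraries, or over 34 libraries and 16667 genes with a symbol found once in each species, before the filter. CPM values are scaled by TMM, except the sums of marker genes, and fold changes are log2 ± SE.

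Members and lists were chosen with earlier results of these data known. Members called in a line were named in full, with WARS in every line. Of related lists, up to 2 called genes per line were named. Atf4, Slc7a5, Psat1, Tap1 and, in HT29, CHAC1, ASNS, TRIB3 and DDIT3 were added after their values were seen. All 55450 mouse identifiers matched GENCODE M21 (GRCm38, the mm10 build); human coordinates were not used here.

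Same-numbered libraries of a line deviated together in CT26 (correlation of deviations from group means 0.22 to 0.48 over 6 pairs) and MC38 (0.19 to 0.32 over 4 pairs), so the replicate block is given beside mouse results it changes; 1 of 6 in CT26 and 2 of 4 in MC38 correlated best with their own number. In HT29 it was -0.10 to 0.06 over 6 pairs. No library repeated another: over 80 pairs the chi-square per degree of freedom was 1.89 to 137. The code was tested on simulated data.

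Alternatives were DESeq2 1.42.0, limma voom 3.58.1, RLE factors, no filter, a minimum count of 50, the replicate block, a term for the number range, each range alone, all mouse libraries in 1 fit and leaving out each library.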

Additional observations from a re-analysis of the deposited data

Results flagged for a closer look

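In 222 groups of 5 or 6 libraries, 1 per gene and group, 4 (1.8%) held a library far from the others by Dixon's test, where chance gives about 1 in 20. Tars in CT26 cells alone had library 1 highest at 270 CPM, the nearest at 259 CPM, a gap of 0.72 of the group's range. Mars in CT26 with SIS ECM had library 3 lowest at 85 CPM, the nearest at 95 CPM, a gap of 0.69. LARS in HT29 with SIS ECM had library 4 highest at 187 CPM, the nearest at 170 CPM, a gap of 0.64. VARS2 in HT29 cells alone had library 2 highest at 26.6 CPM, the nearest at 23.4 CPM, a gap of 0.63. None of these 4 genes was called in that line by edgeR's quasi-likelihood test.

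By edgeR's interaction test, 3 responses differed between lines: HARS2 by -0.38 (HT29 minus MC38, adjusted p = 0.00249), HARS2 by -0.27 (HT29 minus CT26, adjusted p = 0.0153) and MARS2 by 0.55 (MC38 minus CT26, adjusted p = 0.0203). Mouse Hars2 and Hars share 195 exon bases on opposite strands; the part of this overlap was not tested.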

How the results depend on the processing

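Counts of synthetase genes called moved most with the number range in the mouse lines and with smaller sets in HT29. In CT26 the count of 0 became 2 with DESeq2, 3 with the replicate block, 6 with the number-range term, 7 and 4 in libraries 1 to 3 and 4 to 6 alone, and 1 with all mouse libraries in 1 fit. In MC38 the count of 2 became 4 with DESeq2, 1 without a filter, 1 with the replicate block, 10 with the number-range term, 16 and 5 in the ranges alone, and 1 with all mouse libraries. In HT29 the count of 8 became 2 and 0 in the ranges alone. For the differences, the count of 1 became 2, 2 and 2 with the replicate block (MC38 minus CT26, HT29 minus CT26, HT29 minus MC38), 6, 5 and 6 with the number-range term, and 2 for both HT29 differences with DESeq2. Leaving out 1 library at a time gave 0 to 1 in CT26, 1 to 6 in MC38, 6 to 11 in HT29, and 1 to 2, 0 to 3 and 1 to 2 for the differences. The 1 in CT26 was Tars, without SIS ECM library 4. For HT29 minus CT26 the 3 came without SIS ECM library 4 or cells-alone library 3 of CT26. Signs were followed for WARS and for genes called in the main fit or, within a mouse line, with the number-range term. Among these the lone sign change was WARS in HT29 minus MC38, 0.08 and -0.0032 with the block, called in neither. Genes outside that set changed sign too, such as Dars in CT26, at 0.05 in all libraries and -0.09 in libraries 1 to 3. Over all genes, 1135 in CT26 became 2281 with the block, 3545 with the number-range term, 2484 and 2333 in the ranges alone and 1763 with all mouse libraries; 1206 in MC38 became 3246, 5287, 2318 and 538 in the same order without the block, and 626 to 1948 leaving out 1 library; 2058 in HT29 became 719 and 417 in the ranges alone. For the differences, 1165 (MC38 minus CT26) became 3740, 1322 (HT29 minus CT26) 2834, and 2035 with the block, and 727 (HT29 minus MC38) 1882, with the number-range term. The cause of these moves was not tested; the sets of 1 range hold fewer libraries.

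In HT29, 0 of 6 numbers correlated best with their own number, beside 1 of 6 in CT26 and 2 of 4 in MC38. The block lost the HARS2 call in HT29 (adjusted p = 0.0509). Calls of SARS in MC38 and of HARS, IARS, SARS, AARS, GARS and WARS in HT29 held in every fit without 1 library (edgeR adjusted p up to 0.0141 and up to 0.0464), and 17 or 18 of 20 cytosolic genes stayed below 0 in HT29.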
